A study of Mus musculus with 2 samples.

Results

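The mitochondrially encoded genes of respiratory complexes III to V are mt-Co1, mt-Co2, mt-Co3, mt-Cytb, mt-Atp6 and mt-Atp8. They were taken by name from the gene tables of embryonic mouse heart after Ensembl identifiers had been paired with symbols, and 6 of 6 were listed in both libraries, among 17646 genes in all. Together they held 7.07% of all reads in the wild-type heart library and 7.64% in the Srsf10 knockout library, 1.08 times as much (95% interval 1.078 to 1.082, counting error only). Here and below, the reads of a library are the uniquely mapped reads counted in listed genes. Of the 6 genes 5 took a larger share of the knockout library and mt-Co3 a slightly smaller one; among the 12329 genes that reached 1 RPKM in a library, 48.2% were higher in the knockout. None of the 6 differed by 1.5-fold, which 2.95% of those genes did (1.52% higher, 1.44% lower), or by 2-fold, which 0.543% did. Each genotype has 1 library, so the values below carry no error between hearts and no significance test.

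Mitochondrial DNA encodes a few core subunits of the respiratory chain, and nuclear genes encode all the others. Cytochrome b (mt-Cytb) forms the quinol-oxidising core of complex III, which passes electrons to cytochrome c. The cytochrome c oxidase subunits mt-Co1, mt-Co2 and mt-Co3 form the core of complex IV, in which mt-Co1 carries the oxygen-reducing site and mt-Co2 the copper centre that takes electrons from cytochrome c. ATP synthase, complex V, holds mt-Atp6, which lines the proton path beside the rotor, and the short membrane protein mt-Atp8. These messages are cut from long transcripts that cover both strands of mitochondrial DNA, most of them at the tRNAs between the genes, and mt-Atp8 and mt-Atp6 stay together on 1 message. Heart muscle is rich in mitochondria and in these RNAs.

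Total RNA came from hearts at embryonic day 13.5, with 1 wild-type (WT) library and 1 SRSF10-/- library, both of BALB/c strain background. SRSF10 is an SR-type RNA-binding protein that acts in splicing, and the comparison asks which heart transcripts differ when it is lost. The labels give the genotype alone and not how the allele was made, and they give neither the number nor the sex of the embryos behind a library. The libraries held 39.61 M (WT) and 38.89 M (knockout) uniquely mapped reads counted in listed genes. RPKM counts reads per kilobase of listed gene length and per M library reads. Srsf10 itself had 35.3 RPKM (WT) and 1.45 RPKM (knockout), a ratio of 0.0412 (0.0357 to 0.0472), as its label says. The heart label was met by its markers, since 15 of 16 cardiomyocyte markers had at least 20 RPKM in both libraries. The other, Tnnc1, had 42 and 39 reads, and no hepatocyte marker exceeded 2.09 RPKM. Reads of 6 Y-linked genes numbered 2955 (WT) and 18 (knockout), so sex and genotype cannot be told apart in any value below.

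In the GRCm38 assembly all 6 genes lie on the plus strand of the mitochondrial chromosome, without introns, in the order mt-Co1 (chrM:5328-6872), mt-Co2 (chrM:7013-7696), mt-Atp8 (chrM:7766-7969), mt-Atp6 (chrM:7927-8607), mt-Co3 (chrM:8607-9390) and mt-Cytb (chrM:14145-15288). The listed lengths of 1545, 684, 204, 681, 784 and 1144 bases equal these spans. Their GC content ran from 31.9% (mt-Atp8) to 39.9% (mt-Co1). The whole of mt-Atp8 is shown because it is the shortest member and shares its last 43 bases, in capitals, with the start of mt-Atp6 in another reading frame.
mt-Atp8: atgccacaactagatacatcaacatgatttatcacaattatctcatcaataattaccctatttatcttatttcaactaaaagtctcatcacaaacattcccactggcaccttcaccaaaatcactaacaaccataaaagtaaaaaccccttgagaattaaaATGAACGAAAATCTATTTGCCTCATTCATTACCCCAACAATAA

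The last 30 bases of the other members are shown because they set apart these genes from each other. For mt-Co2, mt-Atp6 and mt-Co3 the closest nuclear copy, as annotated, ends just before the capitals. The chromosome beyond those ends was not compared, so the printed bases are not shown to differ from it. The printed end of mt-Co2 also occurs whole in another annotated nuclear transcript. Capitals mark the stop codon or the part of it that the DNA encodes.
mt-Co1 (chrM:6843-6872): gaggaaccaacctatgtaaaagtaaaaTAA
mt-Co2 (chrM:7667-7696): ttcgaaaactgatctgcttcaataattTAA
mt-Atp6 (chrM:8578-8607): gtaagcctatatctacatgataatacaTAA
mt-Co3 (chrM:9361-9390): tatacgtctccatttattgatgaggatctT
mt-Cytb (chrM:15259-15288): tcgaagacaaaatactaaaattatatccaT
In mt-Co3 and mt-Cytb the length leaves 1 base beyond whole codons, the T of a stop codon that polyadenylation completes. The sequences are the GENCODE M21 transcripts, and mt-Atp6 and mt-Co3 share 1 base.

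By unique reads per length, the 3 complex IV genes were the most abundant of the listed genes in both hearts. The mitochondrial ribosomal RNA genes were not listed. In wild-type heart mt-Co3 had 17951 RPKM, mt-Co2 17941 and mt-Co1 17386, which were ranks 1, 2 and 3 of all listed genes. The counting intervals of mt-Co3 (17904 to 17998) and mt-Co2 (17891 to 17992) overlapped, so their order was not resolved, and mt-Co1 lay below both. In the knockout mt-Co2 came first with 20214 RPKM, then mt-Co1 with 19193 and mt-Co3 with 17645, and these intervals did not overlap. The order of the complex IV genes thus differed between the hearts through mt-Co3.

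The complex III and V genes lay below them in both libraries. mt-Cytb stood at 12093 RPKM (WT) and 12914 RPKM (knockout), ranks 4 and 5. mt-Atp8 had 9128 and 11162 RPKM and rank 6 in both. mt-Atp6, which shares its message with mt-Atp8, had only 2628 and 2935 RPKM, ranks 15 and 14. The level of mt-Atp8 per length was therefore 3.47 times that of mt-Atp6 in the wild type and 3.8 times in the knockout. The nuclear genes with the highest mean level were Actc1, cardiac actin (6350 and 5799 RPKM), Eef1a1, a translation elongation factor (4265 and 4700), Myl2, the ventricular myosin light chain (3056 and 2963), Tnnt2, cardiac troponin T (2940 and 2305), and Gm10076, a predicted gene (2265 and 2385). Of these, Actc1, Eef1a1 and Myl2 stood above mt-Atp6 in both libraries, Tnnt2 in the wild type alone, and Gm10076 in neither. Eef1a1 has many processed copies, so its unique count is uncertain. By distance in mean log2 level and log2 ratio over the 2 libraries, the same 5 genes were the nuclear ones nearest to the median member, in the same order, at distances of 1.33 to 2.68 log2 units. Eef1a1 and Gm10076 were higher in the knockout, like the median member, and Actc1, Myl2 and Tnnt2 were lower.

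**Figure D1:**
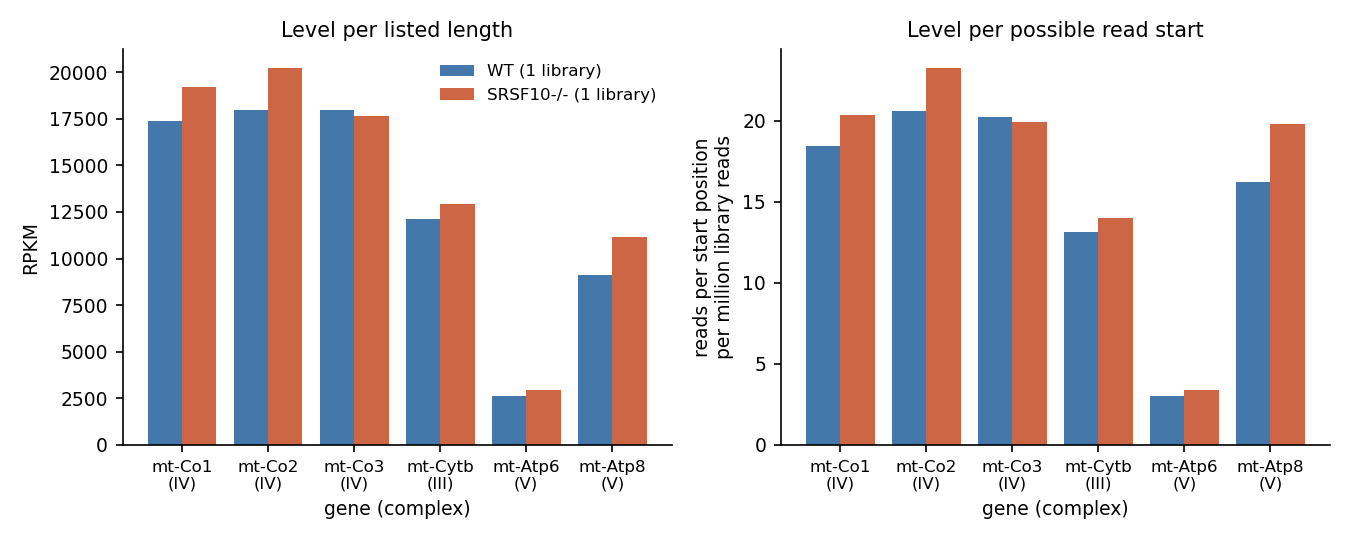
Level of each member in the wild-type (blue) and Srsf10 knockout (orange) heart library, 1 library each, as RPKM (left) and as reads per possible start of a 90-base read per M library reads (right). The complex IV genes are highest and mt-Atp6 lowest on both scales; on the right mt-Co3 is 1.01 times mt-Atp8 in the knockout.

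Levels of short genes depend on how length is counted. Each of 467 entries with 1 read had exactly 90 covered bases, so reads of 90 bases were counted where they lay wholly within a listed sequence, and mt-Atp8 offers only 115 start positions for such a read against 1456 in mt-Co1. Per start position and M library reads, a scale chosen after the data were seen, mt-Atp8 had 16.2 reads (WT) and 19.8 (knockout), above mt-Cytb with 13.1 and 14. It then ranked 4 among the 6, against 5 by RPKM, and mt-Co3 stood 1.25 and 1.01 times above it. In the wild type mt-Co2 came first per start position, with 20.62 reads against 20.25 for mt-Co3, the reverse of their order by RPKM. mt-Atp6 had 3.02 and 3.38 on this scale and stayed last, 5.35 and 5.86 times below mt-Atp8. The genes share 43 bases, so no read of 90 bases lies wholly in both. Since mt-Co1 had 731 reads per start in the wild type, many reads must share a start, and reads copied in PCR cannot be told from separate molecules.

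In complex IV, mt-Co1 and mt-Co2 took a larger share of the knockout library and mt-Co3 did not. mt-Co1 had 1064022 wild-type reads, 2.69% of the library (2.681 to 2.691, exact binomial 95% interval), and 1153110 in the knockout, 2.97% (2.960 to 2.971). Its share was 1.10 times that of the wild type (1.101 to 1.107). mt-Co2 had 486114 and 537660 reads, 1.23% and 1.38% of the libraries, a ratio of 1.13 (1.122 to 1.131). mt-Co3 had 557495 and 537933 reads, 1.41% and 1.38%, a ratio of 0.983 (0.979 to 0.987). Summed, these 3 genes held 5.32% of the wild-type and 5.73% of the knockout reads.

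mt-Cytb, the complex III member, had 548025 reads in wild-type heart (1.38%) and 574478 in knockout heart (1.48%), a ratio of 1.07 (1.064 to 1.072). In complex V mt-Atp8 had 73767 reads (0.186%) and 88547 (0.228%), a ratio of 1.22 (1.211 to 1.235) and the largest of the 6. mt-Atp6 had 70901 reads (0.179%) and 77716 (0.200%), a ratio of 1.12 (1.105 to 1.128). The 2 complex V genes together were 1.17 times as abundant in the knockout (1.163 to 1.179).

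The median log2 ratio of RPKM + 1 was 0.15 over the members and -0.01 over all measured genes. Among 82 nuclear genes with a mean of 500 RPKM or more, which are closer in level, 46 were higher in the knockout and the median was 0.05. The intervals exclude 1 for each member at these counts, except that of mt-Co3 when the libraries are scaled by the upper quartile of nuclear genes (upper bound 1.0017). They take each read as a separate molecule, so they are too narrow if reads were copied in PCR. They also do not hold the spread between hearts or between library preparations, which 1 library per group cannot show.

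Among the members, mt-Co3 took a smaller and mt-Atp8 a larger part in the knockout, and the other 4 held theirs more closely. mt-Co1 made up 38.0% (WT) and 38.8% (knockout) of the members' reads, and mt-Co2 17.4% and 18.1%. mt-Co3 made up 19.9% and 18.1%, and mt-Atp8 2.63% and 2.98%. Relative to the other 5 members, mt-Co3 had a knockout over wild-type ratio of 0.890 and mt-Atp8 one of 1.14, while the other 4 lay between 0.986 (mt-Cytb) and 1.05 (mt-Co2). The level of mt-Co3 relative to mt-Co2 was 1.0 (WT) and 0.873 (knockout), although both encode subunits of complex IV.

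The neighbours of mt-Co3 on mitochondrial DNA had ratios on both sides of 1. mt-Nd3, a complex I gene 68 bases downstream of it, had 31310 (WT) and 27396 (knockout) reads, a ratio of 0.891 (0.877 to 0.906), and was the other listed mitochondrial gene below 1. Upstream, mt-Atp6, which adjoins mt-Co3, and mt-Atp8 had the ratios above 1 given for them. Beyond mt-Nd3, mt-Nd4 had a ratio of 1.04 and mt-Nd5 one of 1.17. At the start of the chain mt-Nd1 and mt-Nd2 had ratios of 1.23 and 1.18, and mt-Nd6, the only listed gene on the minus strand, one of 1.09. The 6 complex I genes listed together went from 3.94% to 4.49% of reads, a ratio of 1.14, and all 12 listed mitochondrial genes from 11.01% to 12.13%, a ratio of 1.10. Whether counting used strand is not given in the sources used here, so RNA of the opposite strand is not separated from these genes.

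**Figure D2:**
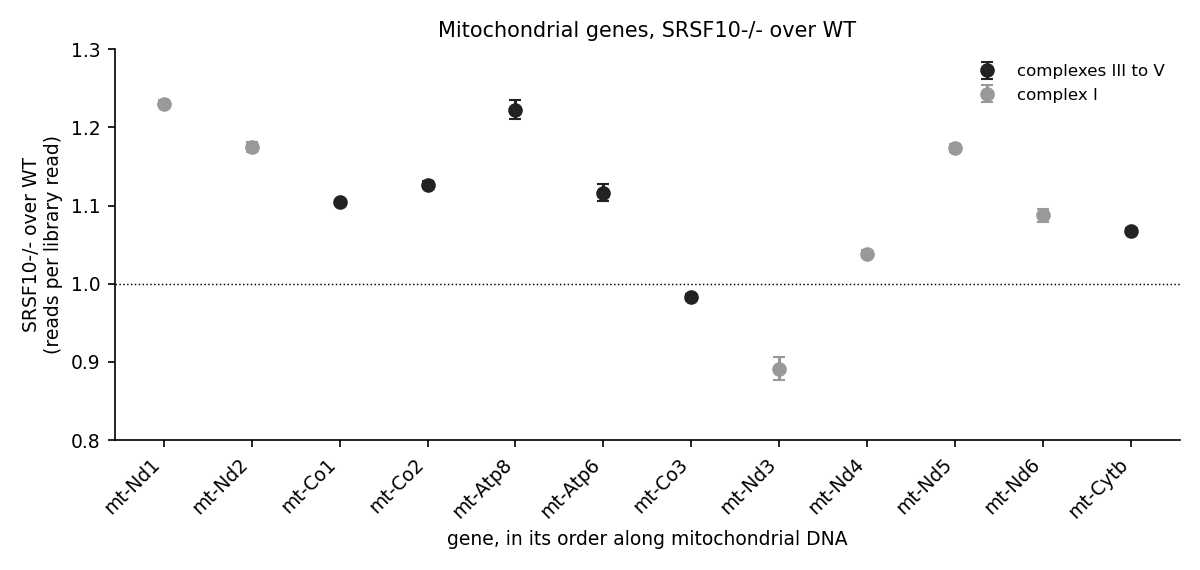
Knockout over wild-type ratio of reads per library read (vertical axis) for the 12 listed mitochondrial genes in their order along mitochondrial DNA (horizontal axis), members in black and complex I genes in grey. Bars are exact 95% intervals of counting error, mostly hidden by the points, and the dotted line marks a ratio of 1. mt-Co3 (0.983) and its neighbour mt-Nd3 (0.891) lie below 1 and the other 10 above it.

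The low count of mt-Atp6 came with incomplete coverage and with a nuclear copy. Reads covered 92.07% (WT) and 89.57% (knockout) of its length, which left 54 and 71 bases without a read, while the other 5 members lacked 1 to 4 bases in each library. The pseudogene Gm10925 on chromosome 1 has the same sequence as mt-Atp6 over 678 bases with 0 differences. Its annotated span ends just before the 3 bases TAA printed in capitals above, and the chromosome beyond that end was not compared. Of the 592 words of 90 bases in mt-Atp6, 589 also occur in Gm10925, so a read of that length from them has the same letters in both places. Whether that copy was among the sequences mapped to is not given in the sources used here. The tables list no reads for Gm10925.

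A nearly identical nuclear copy was also found for 2 members with high levels. mt-Co2 matches the pseudogene Gm28661 over 681 bases with 0 differences, and mt-Co3 matches Gm28437 over 783 bases with 0 differences. The annotated copies again end just before the capitals of the printed ends. Of the words of 90 bases in mt-Co2 and mt-Co3, 99.5% and 99.9% are shared. Both genes had over 99% of their length covered and ranked among the first 3 listed genes in each library. mt-Co1 shares 33.4% of its words of 90 bases with nuclear transcripts, chiefly Gm29216 and Gm13340. mt-Atp8 and mt-Cytb share none with an annotated nuclear transcript. None of the named copies is listed with reads. Gm28661 and Gm10925 lie on the minus strand of chromosome 1, at 24614885-24615565 and 24613974-24614651, and mt-Atp8 starts between mt-Co2 and mt-Atp6. The bases between Gm28661 and Gm10925 were not compared, so whether they hold a copy of mt-Atp8 was not tested. The identifiers of Gm10925, Gm28661, Gm28437 and Gm29216 are higher than any in the tables, and that of Gm13340 is not. A higher identifier does not tell whether the sequence was mapped to under another name. The part of the copies in the levels was not tested. The knockout over wild-type ratios of the members that share no word of 90 bases with an annotated transcript were 1.22 (mt-Atp8) and 1.07 (mt-Cytb). Those of the members that share at least 99% were 1.13, 1.12 and 0.983. This split rests on annotated transcripts alone, so it does not separate members with a nuclear copy from members without.

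**Figure D3:**
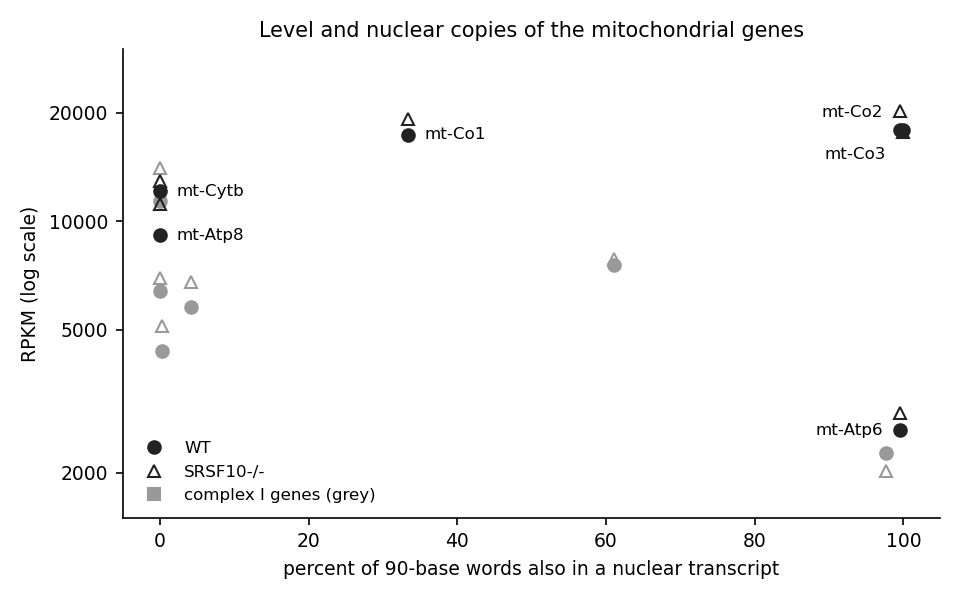
RPKM (log scale) of the 12 listed mitochondrial genes against the percent of their words of 90 bases that also occur in an annotated nuclear transcript, in the wild type (filled circles) and the knockout (open triangles), with members in black and labelled and complex I genes in grey. mt-Co2 and mt-Co3 are near the top and mt-Atp6 near the bottom at almost the same percent shared. Nuclear sequence outside annotated transcripts was not compared.

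The nuclear-encoded subunits of the same complexes were more often lower than higher in the knockout library, against 51.8% lower among all measured genes. In complex III 7 of 9 were lower, with a median log2 ratio of -0.21 and 0 past 1.5-fold. Uqcr11, a small supernumerary subunit and the most abundant, had 638 and 550 RPKM. Uqcrfs1, the Rieske iron-sulfur protein that works beside cytochrome b, had 129 and 95.8 RPKM, 1.35-fold lower (1.3 to 1.40), the largest difference downward in that list. Uqcrb, a subunit that binds cytochrome b, had 402 and 461 RPKM, 1.15-fold higher (1.11 to 1.18). The summed reads of the 9 had a ratio of 0.914 (0.906 to 0.923), against 1.07 for mt-Cytb.

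In complex IV 11 of 17 nuclear subunits were lower, with a median of -0.09, and 1 was at least 1.5-fold lower, against 1.44% of all measured genes. That gene was Cox6b2, an isoform best known from testis, at a low level of 17.3 and 10.7 RPKM, 1.61-fold lower (1.36 to 1.90). Cox6b1, its widely expressed counterpart and the most abundant subunit, had 783 and 861 RPKM, 1.10-fold higher (1.08 to 1.13). In complex V 13 of 18 were lower, with a median of -0.07. The catalytic beta subunit Atp5b had 1420 and 1369 RPKM, 1.04-fold lower, Atp5g3, 1 of the genes for the c subunit of the rotor, was 1.34-fold lower (1.31 to 1.38), and Atpif1, the inhibitor of ATP hydrolysis, was 1.11-fold higher (1.08 to 1.14). Summed reads had ratios of 0.958 for complex IV and 0.961 for complex V.

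Per length the members stood far above these partners in both hearts. The median level of nuclear subunits was 249 and 218 RPKM in complex III, 295 and 262 in complex IV and 265 and 281 in complex V. The median member was 48.6 and 59.2 times as high in complex III, 60.7 and 73.2 times in complex IV, and 22.2 and 25.1 times in complex V. Even mt-Atp6 was above the highest nuclear subunit, Atp5b.

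**Figure D4:**
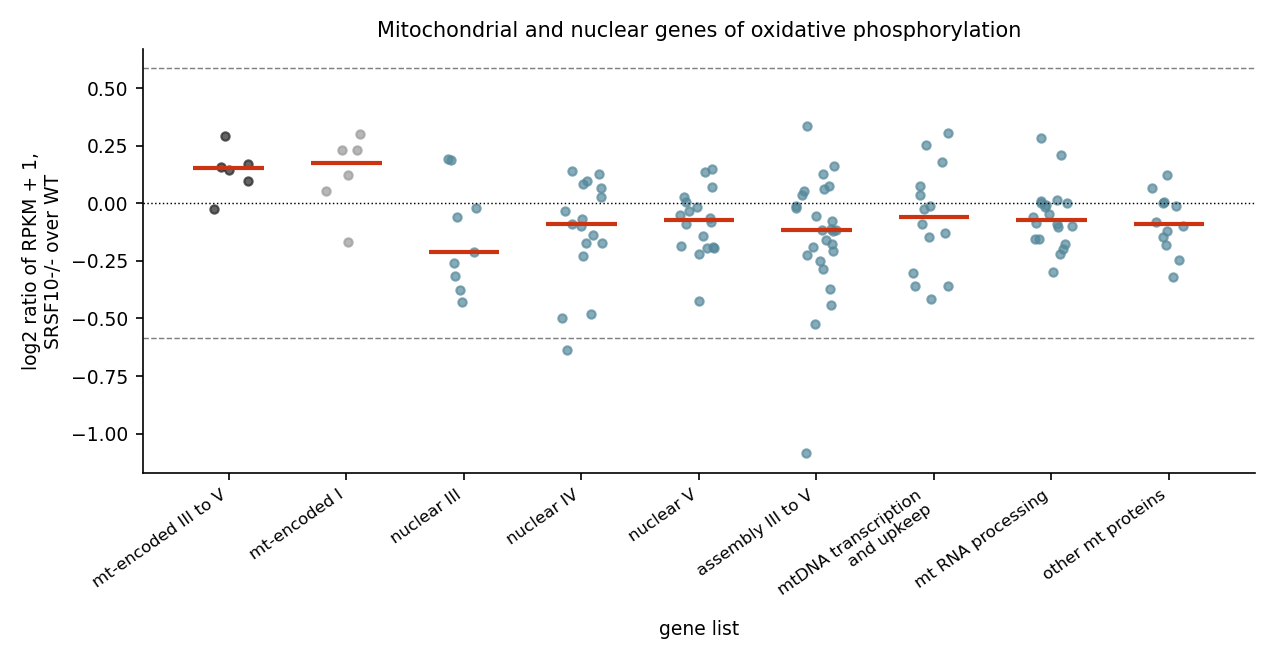
Log2 ratio of RPKM + 1, knockout over wild type, for each gene (points) of the mitochondrially encoded genes and of nuclear lists for the complexes, their assembly, mitochondrial transcription, RNA processing and other mitochondrial proteins, with list medians in red. Dashed lines mark 1.5-fold; the medians of the mitochondrially encoded lists are 0.15 and 0.18 and those of the nuclear lists lie between -0.21 and -0.06.

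Genes that make or handle mitochondrial RNA were also more often lower than higher, against 51.8% lower among all measured genes, and 0 differed by 1.5-fold. Of 14 genes for transcription and upkeep of mitochondrial DNA 5 were higher and 9 lower, with a median of -0.06. Tfb1m, which methylates the small ribosomal RNA, was 1.26-fold higher (1.12 to 1.42), and Top1mt, the mitochondrial topoisomerase, was 1.43-fold lower (1.22 to 1.67). Ssbp1, which binds single-stranded mitochondrial DNA, was the most abundant with 25.9 and 25.4 RPKM. Among 20 RNA processing genes 6 were higher and 14 lower, with a median of -0.07. Hsd17b10, a part of mitochondrial RNase P, had 66.2 and 66.3 RPKM, Ptcd1, a pentatricopeptide protein, was 1.25-fold higher (1.14 to 1.38) and Fastkd1, of the FASTK family of RNA-binding proteins, was 1.26-fold lower (1.16 to 1.37).

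Assembly factors of complexes III to V were lower in 19 of 26 genes measured, with a median of -0.12, where 51.8% of all measured genes were lower and 1.44% at least 1.5-fold lower. Fmc1, linked to ATP synthase assembly, had 74.7 RPKM (WT) and 34.7 (knockout), 2.16-fold lower (1.97 to 2.37), and was the 1 gene in this list past 1.5-fold. Uqcc2, needed to assemble cytochrome b into complex III, was the most abundant with 101 and 70.1 RPKM, 1.45-fold lower (1.36 to 1.54). Lyrm7, a chaperone of the Rieske protein, was 1.32-fold higher (1.16 to 1.51). Other mitochondrial proteins were lower in 8 of 12, against the same 51.8%, with a median of -0.09: the ADP/ATP carrier Slc25a4 had 538 and 563 RPKM, the prohibitin Phb was 1.09-fold higher and the import pore Tomm40 was 1.25-fold lower. Among 10 regulators of mitochondrial biogenesis 4 were higher and 6 lower, again beside 51.8% lower among all measured genes, with a median of -0.01 that became 0.005 per read outside mitochondrial genes. Nrf1, a transcription factor of respiratory chain genes, was 1.18-fold lower (1.09 to 1.27), Esrra was 1.10-fold higher (1.04 to 1.17), and Yy1 had 24.5 and 23.9 RPKM.

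Marker genes of several cell types differed between the libraries too, and in bulk RNA fewer cells of a type and less RNA per cell cannot be told apart. The counts of markers below take every listed marker by its ratio of reads per library read, with no filter on level, and stand beside 48.2% higher and 51.8% lower among all measured genes. Beyond the most abundant marker of each list, genes are named here after their values were seen. Cardiomyocyte markers, led by Actc1, were lower in 12 of 16, with summed levels of 22700 (WT) and 20440 RPKM (knockout), while the members' summed level was 77130 and 84060 RPKM. Fibroblast and cushion markers, led by Col1a1, were lower in 9 of 9 (905 and 650 RPKM summed).

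Erythroid markers were lower in 8 of 11 (4937 and 3816 RPKM summed). The embryonic globin Hbb-y, the most abundant, had a ratio of 0.920 and Hbb-bh1 one of 1.17, whereas the adult globins Hbb-bs, Hbb-bt, Hba-a1 and Hba-a2 were 2.07-, 2.63-, 1.71- and 1.77-fold lower. Hba-a1 and Hba-a2 are near-identical copies, as are parts of Hbb-bs and Hbb-bt, so the split of reads within each pair is uncertain. Smooth muscle markers, led by Myl9, were higher in 4 of 5 (2302 and 2758), epicardial markers, led by Upk3b, in 5 of 7 (153 and 174), and macrophage markers, led by Lyz2, in 7 of 8 (44.9 and 61.0). Endothelial markers, led by Cdh5, were higher in 5 of 8, with equal summed levels (292 and 292).

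Skeletal muscle markers went both ways, with 5 of 9 higher and 4 lower (358 and 445 RPKM summed). Acta1, the most abundant, had 219 and 255 RPKM, and Tnni2, a fast troponin I, had 24.4 and 96.8. Ckm was lower (102 and 75.1 RPKM), and so were the reads of Myh3 (87 and 8), Myod1 (18 and 2) and Myog (41 and 18), which were under 1 RPKM in both libraries. Hepatocyte markers had 315 (WT) and 82 (knockout) reads in all, a ratio of 0.265 (0.205 to 0.339), with 2 of 6 higher and 4 lower. Afp had 145 and 4 reads, Alb 88 and 0, Apoa1 19 and 2 and Serpina1a 2 and 0. Apoa2, the most abundant, had 39 and 42 reads, and Ttr had 22 and 34. The part of cell composition and of sex in the ratios of the mitochondrial genes was not tested.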

How the data were processed

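One wild-type and 1 Srsf10 knockout heart library were compared, grouped by the genotype in the labels. The submitters' processing notes name Bowtie 0.12.2 and mm9. For annotation release, filters and strand use, nothing is given in the sources used here. Per the file headers, the deposited counts are unique reads for each Ensembl gene, and they sum to the header totals of 39612561 and 38886434. The authors also deposited RPKM, which recomputation from count, length and total matched to a relative deviation of 2.1e-14, and the percent of each gene's length covered. Listed lengths differed between the tables for 76 of 16410 shared genes, 5 of them measured, Tnnc1 among them and no member. A gene absent from 1 table was taken as 0 reads. A coverage value of 100.06% in the knockout table was left as it is.

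Shares have exact binomial (Clopper-Pearson) 95% intervals, ratios of reads per library read exact conditional binomial ones, and RPKM exact Poisson ones; all cover counting error only. No test was run, because each genotype has 1 library. Lists were described by log2 ratios of RPKM + 1 over genes that reached 1 RPKM in a library, a scale that understates ratios of low genes. Symbols came from a table of gene names (17196 of 17646 identifiers matched). Positions, transcripts and shared words of 31 and 90 bases on either strand came from GENCODE M21 on GRCm38, not mm9, and cover annotated transcripts rather than the whole genome. In lists, the most abundant gene and those with the largest ratio each way were named. The Gm10925, Gm28661, Gm28437, Gm29216 and Gm13340 copies share the most words with a member. Members and lists were chosen with earlier results of these data known. Python 3.11.15, SciPy 1.17.1 and, for TMM factors, edgeR 4.0.16 in R 4.3.3 were used. Scripts were tested on simulated data.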

Additional observations from a re-analysis of the deposited data

How the results depend on the processing

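The summed members' ratio of 1.08 became 1.094 per read outside mitochondrial genes, 1.087 when scaled to the median ratio of nuclear genes, 1.0968 with their upper quartile and, added after the data were seen, 1.093 per read outside mitochondrial, globin and Y-linked genes. TMM factors and leaving out mt-Atp6 moved it by less than its counting interval. Over these scalings and pseudocounts of 0.1, 1 and 5 each member kept its side of 1: mt-Co3 lay between 0.982 and 0.998, with an interval that reached 1.0017 under the upper quartile, mt-Cytb between 1.07 and 1.08, and mt-Atp8 between 1.22 and 1.24. Per 100 reads outside mitochondrial genes the members held 7.944 (wild type) and 8.69 (knockout) reads. The numbers of genes at least 1.5-fold higher and lower, 187 and 177, were 402 and 343 with a pseudocount of 0.1, 34 and 54 with 5, and 74 and 104 at an RPKM of at least 5. At 2-fold, 0.543% of genes in the main setting, they were 109 and 100, 6 and 17, and 11 and 27. Counts of lower genes in the nuclear and complex I lists stayed within 1.5 times of those given, and the median of the biogenesis regulators turned to 0.005 per read outside mitochondrial genes; the cause was not tested. No paired analysis was possible because each genotype has 1 library, and for the same reason no library could be left out. Depth does not limit the members, which had at least 70901 reads each; the missing replicates do.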

Other observations

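Of the 37 genes annotated on mitochondrial DNA, 12 were listed in the tables, and these were protein genes. The 22 tRNA genes and 2 ribosomal RNA genes were not listed, nor was mt-Nd4l, a complex I gene. Of its words of 90 bases 98.6% also occur in the nuclear copy Gm10222, whose identifier lies within the range of the tables and which was not listed either.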
